A study of Drosophila melanogaster with 30 samples.

Results

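The dpr, DIP, beat and side genes of *Drosophila melanogaster* encode 4 families of immunoglobulin-superfamily proteins of the neuronal surface. Here they were followed as possible targets of CrebB, the fly cAMP response element-binding protein, in the mushroom bodies (MBs) before and after appetitive memory training. Members were chosen by symbol alone: each gene of the release 6 gene table named dpr with a number, or with a name that starts with DIP-, beat- or side. This gave 54 genes of the 17480 tested, namely 21 dpr, 11 DIP, 14 beat and 8 side genes. No measured value entered this rule, though earlier results of these data were known when it was set.

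Dpr proteins bind DIP proteins, and Beat proteins bind Side proteins, so that each family holds partners of another. The pairs are known from synapse-specific recognition in the fly visual system and neuromuscular junction, and Beat and Side from the guidance of motor axons. In the MBs, Dpr12 of the γ neurons and DIP-delta of dopaminergic neurons are needed for a compartment of the γ lobe. CREB factors are needed for long-term memory in flies.

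The study used Targeted DamID (TaDa), in which a DNA adenine methyltransferase (Dam) fused to CrebB methylates GATC sites near where the protein binds. Dam alone was the reference. All flies carried tubGal80ts and the mb247-Gal4 driver (labelled MB-Gal4) with either UAS-Dam-CrebB or UAS-Dam, and a shift to 29 °C allowed expression. The driver is an enhancer of Mef2 that is active in neurons of the α, β and γ lobes, and DNA came from pools of 50 to 100 adult heads, so the profiles hold the driver's cells together. Flies were naïve, or had been trained with an odour and sucrose given together (paired) or separated in time (unpaired). Dam was induced from 3 h before to 24 h after training (TI-1), or from 24 to 48 h after it (TI-2), and the flies of the 2 intervals were trained at different temperatures. Each of the 5 groups (naïve, unpaired TI-1, paired TI-1, unpaired TI-2 and paired TI-2) had 3 Dam::CrebB and 3 Dam-only samples, described as biological replicates, which make 3 profiles. The labels give the naïve flies no interval, while the study describes such flies for both. The 1 naïve group was set against both intervals, so a trained minus naïve difference may set different induction windows against each other. Each profile gives, per fragment between GATC sites, how far the Dam::CrebB signal exceeded that of Dam-only, as a log2 ratio. A gene's value is the length-weighted mean of that log2 ratio over the fragments of its body, so a value above 0 means more methylation by Dam::CrebB than by Dam. It is not an expression level, and the read depth behind it is unknown.

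Some profiles stood apart from the rest. In paired TI-1 replicate 3 the median of all genes was 0.62, against -0.0030 to 0.12 in the other 14 profiles, and its correlation with them over all genes ran from -0.20 to 0.62. Over the 54 receptor genes, Spearman's rho was 0.34 to 0.70 in the 14 pairs with that profile, and 0.69 to 0.98 in the other 91 pairs. Paired TI-2 replicate 3 was the next furthest, with rho between 0.69 and 0.90 among those 91 pairs. Naïve replicate 1 was flatter, with an SD over the 54 genes of 0.11 against 0.21 in both other naïve profiles, and it lay nearest to 0 for 37 of the 54. Values are therefore also given without these profiles where they decide a result. Chromosome names carried a prefix in the 3 naïve and the 3 unpaired TI-1 profiles, in 1 of 3 paired TI-1 profiles and in no TI-2 profile, so that how the files were written and the TI-2 groups cannot be told apart. All 8 MB marker genes (Mef2, ey, dac, toy, rut, dnc, Dop1R1 and prt) had naïve log2 ratios above 0. Of the other markers, 1 of 3 glial genes (moody, 0.47, against -0.38 for repo), 2 of 4 photoreceptor genes, 0 of 2 muscle genes and 0 of 3 fat body genes did. So did 9156 of all 17480 genes, and 966 of the 1311 genes with at least 50 fragments. The lists were not matched for length: the MB markers other than prt hold 57 to 300 fragments, and the glial genes 10 to 35.

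In naïve flies the receptor genes carried little Dam::CrebB signal as a group, and a few members carried much more than the rest. The median log2 ratio of the 54 genes was 0.023 ± 0.033 (mean ± SD of the 3 profile medians), beside 0.014 ± 0.018 for all genes and 0.14 ± 0.058 for the 1311 genes with at least 50 fragments. The members lie on 3R (21 genes), 2L (16), 2R (7), X (5), 3L (4) and chromosome 4 (1). They are long, with a median of 60.5 fragments against 8 for all genes tested, and 28 of the 54 have at least 50. The means of 29 members lay above 0 and those of 8 lay above 0.2, which is 14.8% of the members against 31.2% of all genes and 41.2% of the genes with at least 50 fragments. Below -0.2 lay 3 members, all dpr genes, or 5.56% against 18.5% of all genes. The share above 0.2 was thus under both backgrounds, and the share below -0.2 was near the 5.80% of genes with at least 50 fragments.

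The families differed in order. The side genes had the highest naïve median log2 ratio (0.11 ± 0.069), followed by beat (0.052 ± 0.027), dpr (0.023 ± 0.040) and DIP (-0.055 ± 0.017). Above 0 were the naïve means of 6 of 8 side, 9 of 14 beat, 12 of 21 dpr and 2 of 11 DIP genes. With quantile normalization these counts were 7, 13, 14 and 6, and with the median over fragments as the gene value they were 5, 3, 7 and 1, so the side of 0 is not settled for the beat, dpr and DIP families. The dpr family was the widest, with an interquartile range of 0.22 against 0.16 for beat, 0.12 for side and 0.058 for DIP. It held both the highest and the lowest of the 54 genes.

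**Figure D1:**
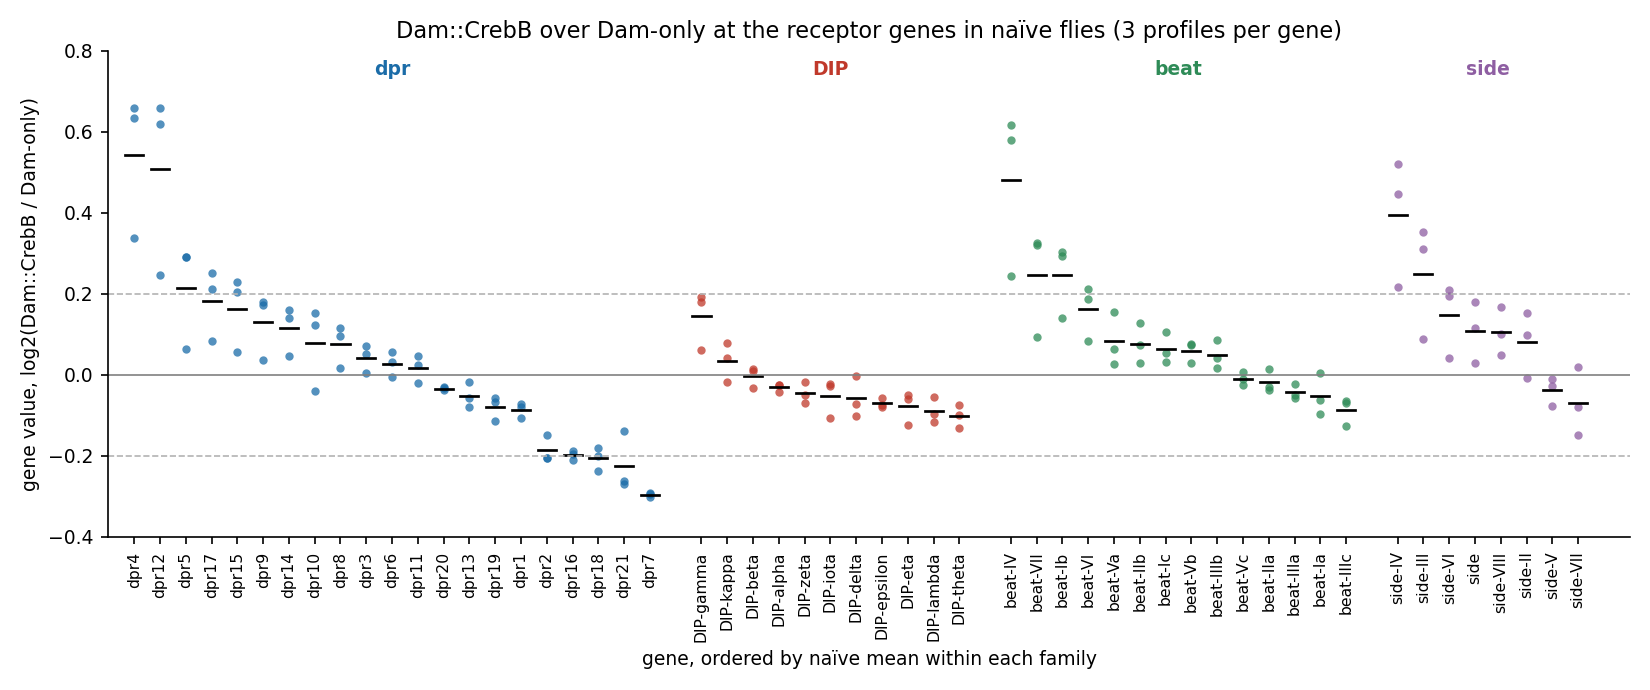
Gene values (log2 of Dam::CrebB over Dam-only, y axis) of the 54 receptor genes (x axis, ordered within each family) in naïve flies; points are the 3 profiles, black bars their mean, and dashed lines mark 0.2 and -0.2. The dpr genes spread from -0.30 (dpr7) to 0.54 (dpr4), while the 11 DIP genes lie between -0.10 and 0.14.

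None of the 54 genes passed the test against 0 in naïve flies at the thresholds used (limma, adjusted p under 0.01 and over 0.2 in size), and none of the 17480 genes did (0%). The smallest adjusted p among members was 0.0111, for dpr7. At an adjusted p under 0.05, 7 members lay above 0.2 against 28.6% of all genes, and 3 lay below -0.2 against 17.3%. At an unadjusted p under 0.05, 15 members were above 0 (35.5% of all genes) and 6 below (28.2%). In each of these counts the share of members was below the background. Without naïve replicate 1, dpr4, dpr12, beat-IV and side-IV passed (adjusted p 0.00543 to 0.00799, limma), as did 3178 of all genes upward.

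Among the Dprs, whose Ig domains bind DIPs across the synaptic cleft, dpr4 and dpr12 led. The dpr4 gene (chr3R:11533483-11542949, 16 fragments) had naïve log2 ratios of 0.34, 0.66 and 0.63, a mean of 0.54 ± 0.18 (SD, n = 3). In trained flies it was at 0.72, 0.47 and 0.60 in unpaired TI-1, 0.50, 0.27 and 0.65 in paired TI-1, 0.39, 0.70 and 0.64 in unpaired TI-2 and 0.22, 0.57 and 1.11 in paired TI-2, so that no profile fell below 0.2. The same held for dpr12 (chr2R:5804712-5860831, 92 fragments, none shared with another gene), with naïve log2 ratios of 0.25, 0.62 and 0.66, a mean of 0.51 ± 0.23. Its trained values were 0.64, 0.51 and 0.68 in unpaired TI-1, 0.49, 0.32 and 0.89 in paired TI-1, 0.36, 0.50 and 0.56 in unpaired TI-2 and 0.23, 0.54 and 1.12 in paired TI-2. These were the only members above 0.2 in all 15 profiles, and in naïve flies they ranked at the 86.6 and 85.4 percentiles of all genes. The dpr5 gene came next with 0.065, 0.29 and 0.29, a mean of 0.22 ± 0.13, while the median over its 20 fragments was -0.0059. The next 2 dpr genes, dpr17 (0.082, 0.21 and 0.25) and dpr15 (0.055, 0.20 and 0.23), were above 0 in all 15 profiles.

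At the other end, dpr7 (chr4:247124-253329) had naïve log2 ratios of -0.29, -0.29 and -0.30, 3 values close together. It is the only member on chromosome 4, where the 114 genes tested had a median of -0.14 ± 0.040 in naïve flies. The dpr21 gene (chr2R:3066499-3191011, 403 fragments) had -0.14, -0.26 and -0.27, a mean of -0.22 ± 0.073. The dpr18 gene (chrX:16063738-16070304) had -0.24, -0.18 and -0.20. Without paired TI-1 replicate 3, the members below 0 in all 14 profiles were dpr21, DIP-iota and DIP-lambda, and with it no member was below 0 in all 15. Above 0 in all 15 profiles were 22 members. The dpr genes between these ends were dpr9, dpr14, dpr10, dpr8, dpr3, dpr6 and dpr11, with naïve means from 0.016 to 0.13, then dpr20, dpr13, dpr19 and dpr1, from -0.086 to -0.034, and dpr2 and dpr16, at -0.19 and -0.20. The dpr1 gene, which gave the family its name, is required for the proboscis response to salt and was at -0.11, -0.080 and -0.072.

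DIP genes, which encode the binding partners of the Dprs, stayed close to 0. Only DIP-gamma and DIP-kappa had naïve means above 0. The DIP-gamma gene (chr3R:28925004-28970372) had 0.060, 0.19 and 0.18, a mean of 0.14 ± 0.073, and its 15 values ran from 0.060 to 0.49 with none below 0. Lowest were DIP-theta, with -0.10, -0.13 and -0.074, and DIP-lambda, with -0.056, -0.096 and -0.12. DIP-lambda is the longest member (379081 bp, 1198 fragments), and 0.167% of its fragments were above 0.2 in all 3 naïve profiles. DIP-kappa (0.034 ± 0.048) and DIP-beta (-0.0034 ± 0.025) did not differ from 0 beyond the spread of their profiles. The other 6 DIP genes (DIP-alpha, DIP-zeta, DIP-iota, DIP-delta, DIP-epsilon and DIP-eta) had naïve means from -0.078 to -0.031.

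The beat genes are named after beaten path, whose product loosens motor axon bundles. The highest was beat-IV (chr3R:23557412-23580077) with naïve log2 ratios of 0.24, 0.62 and 0.58, a mean of 0.48 ± 0.20, and in trained flies it was at 0.48, 0.33 and 0.54 in unpaired TI-1, 0.33, 0.28 and 0.69 in paired TI-1, 0.31, 0.36 and 0.27 in unpaired TI-2 and 0.15, 0.37 and 0.72 in paired TI-2. Its lowest value was thus 0.15. Next were beat-VII with 0.094, 0.32 and 0.33 and beat-Ib with 0.14, 0.30 and 0.29, both above 0 in all 15 profiles. The 3 genes thus agreed in direction across profiles while naïve replicate 1 gave the smallest value for each. The lowest were beat-IIIc, with -0.065, -0.13 and -0.069, and beat-Ia, the receptor of Side on motor axons, with -0.061, -0.097 and 0.0037. The beat-Ia value moves to 0.0034 with quantile normalization. In between, beat-VI, beat-Va, beat-IIb, beat-Ic, beat-Vb and beat-IIIb had naïve means from 0.048 to 0.16, and beat-Vc, beat-IIa and beat-IIIa from -0.043 to -0.0093. The beat-IIIa value is not its own, since CG34106 covers all of its fragments.

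Side, the founding member of its family, is a ligand that attracts motor axons carrying Beat-Ia. The highest side gene was side-IV (chr3R:13450590-13464184) with naïve log2 ratios of 0.22, 0.45 and 0.52, a mean of 0.39 ± 0.16. Of its 27 fragments, 25.9% belong to no other gene, as it overlaps the antisense genes asRNA:CR17025 and asRNA:CR46354, and those fragments alone gave a naïve mean of 0.62. In trained flies side-IV was at 0.43, 0.36 and 0.34 in unpaired TI-1, 0.18, 0.28 and 0.50 in paired TI-1, 0.31, 0.22 and 0.24 in unpaired TI-2 and 0.043, 0.37 and 0.32 in paired TI-2, lower in paired TI-2 replicate 1 (0.043) than in any other profile. The side-III gene (chr3R:5862865-5959555) had 0.087, 0.31 and 0.35, and side-VI had 0.041, 0.21 and 0.19. The lowest, side-VII, had -0.15, -0.079 and 0.020, a spread that includes 0, and side-V had -0.028, -0.078 and -0.011. Side itself had 0.030, 0.11 and 0.18, a mean of 0.11 ± 0.076, with all 15 values above 0. The side-VIII and side-II genes had naïve means of 0.11 and 0.081.

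The order of the families recurred over the profiles. The side median was the highest of the 4 in 14 of 15 profiles, with beat higher in unpaired TI-2 replicate 2. The DIP median was the lowest in 14 of 15, with beat lower in paired TI-1 replicate 3. Side exceeded dpr and DIP in 15 of 15 profiles, dpr exceeded DIP in 15 of 15, and beat exceeded dpr in 12 of 15, so beat and dpr were the neighbours least well separated. The side median was above that of all genes in 14 of 15 profiles, beat in 14, dpr in 11 and DIP in 4. Against genes with at least 50 fragments, the side median was higher in 4 of 15 profiles, dpr and beat in 1 each and DIP in 0. The naïve order side, beat, dpr, DIP held under each alternative run for the gene value, the scaling and the fragment minimum, except the median over fragments, where dpr stood above beat.

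**Figure D2:**
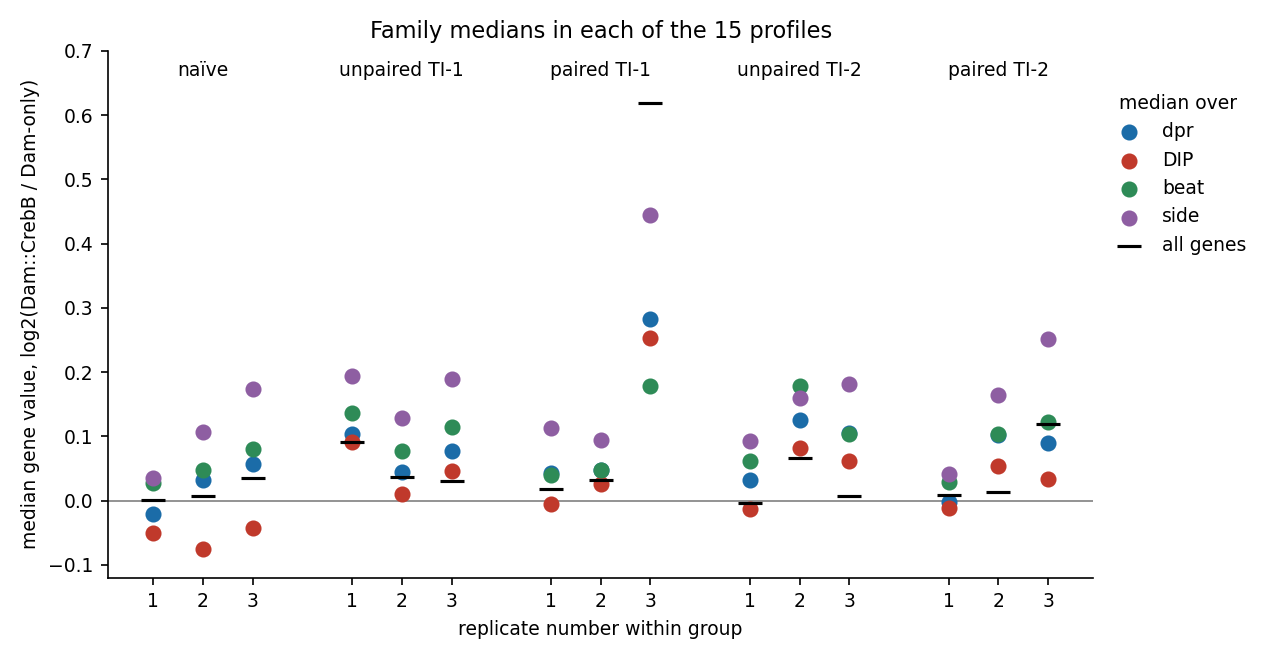
Median gene value (log2 of Dam::CrebB over Dam-only, y axis) of each family in each of the 15 profiles, by group and replicate (x axis); coloured points are the 4 families and black bars the median of all genes. Side genes are on top in 14 of 15 profiles and DIP genes at the bottom in 14 of 15; paired TI-1 replicate 3 lies above the others for all genes (0.62).

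Within the genes the signal was local. Of the fragments of side genes, 15.8% were above 0.2 in all 3 naïve profiles, as were 14% of those of beat, 7.05% of dpr and 1.69% of DIP genes, against 15.1% of the fragments of all genes. Over all members these were 349 of 4719 fragments. The shares pool the fragments of a family, so its longest gene weighs most. DIP-lambda holds 1198 of the 1712 DIP fragments, and dpr21 holds 403 of the 1616 dpr fragments. Below -0.2 in all 3 profiles were 8.91% of side, 9.94% of beat, 11.1% of dpr and 7.13% of DIP fragments, against 9.82%. A run of 1 or more adjacent fragments above 0.2 in all 3 naïve profiles was found in 46 members, and the longest run exceeded 2000 bp in 20. In some members, such as dpr21 and beat-Ia, the longest run held only 1 fragment. The share of all genes with a run was not computed. Outside that run, 23 of the 46 genes had a mean above 0 and 6 above 0.2. These runs were chosen on the naïve values, so their naïve levels only describe them.

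The longest run lay in beat-Ib (chr2L:15906685-15915091, 8407 bp, 18 fragments). Its naïve log2 ratios were 1.05, 1.76 and 1.64, while the rest of the gene averaged 0.038. It overlaps the noncoding RNA genes lncRNA:CR44867 and lncRNA:CR44868, so the signal cannot be assigned to beat-Ib alone. In profiles that did not choose the run, its mean was 1.13 ± 0.42 in unpaired TI-1, 0.85 ± 0.44 in paired TI-1, 1.14 ± 0.45 in unpaired TI-2 and 1.29 ± 0.092 in paired TI-2. The run was thus high in every group.

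In dpr12 a run of 7 fragments (chr2R:5818002-5824475) had naïve log2 ratios of 0.73, 1.45 and 1.37, and the rest of the gene still averaged 0.42. It overlaps no other gene, and its means in the trained groups were between 1.20 and 1.73. The beat-IV gene was likewise high along its body, with 0.80 in its longest run (chr3R:23574686-23579250) and 0.40 outside it. By contrast, side-VIII reached 1.37 in a run of 2880 bp (chr2R:20458371-20461250) and averaged 0.037 elsewhere, and beat-Ic reached 1.40 in 2660 bp (chr2L:16034835-16037494) and averaged -0.026 elsewhere. Whole-gene means near 0 thus held runs as high as those of the leading members.

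The run of side-IV (chr3R:13451966-13455000) had 0.39, 1.17 and 1.26 in naïve flies. Its means were 0.50, 0.27, 0.34 and 0.26 in unpaired TI-1, paired TI-1, unpaired TI-2 and paired TI-2. As the run was chosen on the naïve values, its difference from the trained groups is a description. The run at the upper end of beat-IIb (chr3R:17261720-17265988, which overlaps CG44257) went the other way, from 0.78 in naïve flies to 1.35, 0.85, 1.54 and 1.39 in the same order of groups, while the rest of the gene averaged -0.024 in naïve flies.

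**Figure D3:**
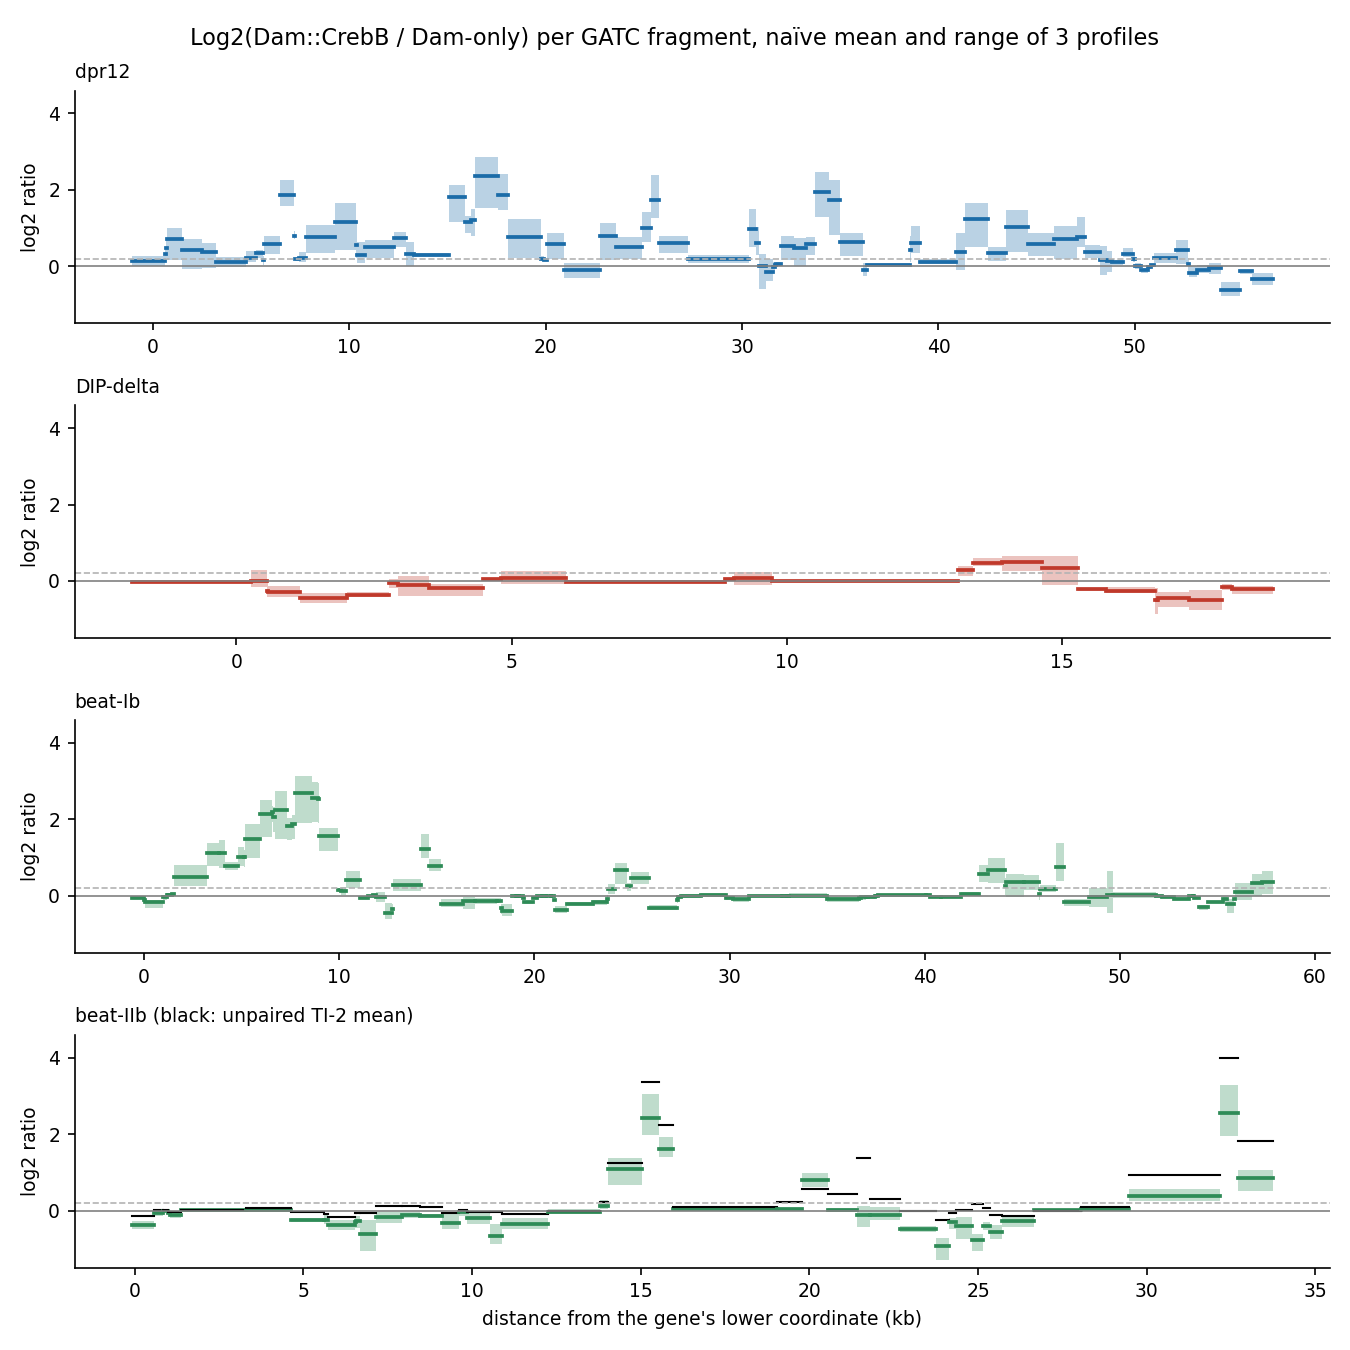
Fragment values (log2 of Dam::CrebB over Dam-only, y axis) along dpr12, DIP-delta, beat-Ib and beat-IIb, by distance from the lower coordinate of the gene in kb (x axis); coloured lines are the naïve mean, bands span the lowest to the highest of the 3 naïve profiles, and black lines (beat-IIb) are the unpaired TI-2 mean. Fragments above 0.2 are spread along dpr12, while the longest stretch of DIP-delta reaches a mean of 0.48 and beat-Ib its longest near the lower edge (1.48).

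Neighbouring genes of a family were set side by side in 11 pairs. In 6 of them the same gene was the higher in at least 14 of 15 profiles, and in the other 5 the order varied. The dpr4 and dpr5 genes lie 27.5 kb apart on 3R and had naïve means of 0.54 and 0.22, with dpr4 higher in 14 of 15 profiles. On 2L, beat-Ia and beat-Ic are 8.26 kb apart, and beat-Ic (0.063) was higher than beat-Ia (-0.051) in 15 of 15. The beat-IIb gene was higher than beat-IIa, 55 kb away, in 15 of 15 profiles. DIP-eta exceeded DIP-theta, 8.34 kb away, in 15 of 15, though both were below 0 in naïve flies (-0.078 and -0.10). For dpr15 and dpr17, 27.4 kb apart, the order changed between profiles (0.16 and 0.18). It varied too for beat-IIIa and beat-IIIc, 14.5 kb apart, with beat-IIIa higher in 8 of 15, for beat-Va against beat-Vc (7 of 15) and beat-Vb (4 of 15), and for dpr6 against dpr10 (3 of 15).

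Known binding partners were set side by side, with no test. Dpr12 and DIP-delta differed most: dpr12 was higher in 15 of 15 profiles, with naïve means of 0.51 and -0.058. DIP-delta nevertheless held a run of 1256 bp at 0.48 in naïve flies. DIP-gamma (0.14) exceeded its partner gene dpr11 (0.016) in 15 of 15 and dpr16 (-0.20) in 14 of 15, and could not be ordered against dpr15 (0.16) and dpr17 (0.18). DIP-alpha (-0.031) was below dpr6 (0.028) and dpr10 (0.078) in 14 of 15 profiles each. DIP-alpha holds 42.0% fragments of its own.

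Among Side and Beat partners, side (0.11) was above beat-Ia (-0.051) in 15 of 15 profiles. The side-II gene (0.081) was below beat-VI (0.16) in 15 of 15. The side-IV gene (0.39) was above beat-IIa (-0.018) in 15 of 15, but above beat-IIb (0.077 in naïve flies) in 10 of 15. The side-VI gene (0.15) was above beat-Va (0.083) and beat-Vc (-0.0093) in 14 of 15 and above beat-Vb (0.059) in 15 of 15. In 11 of the 14 pairs set side by side, the same partner was thus the higher in at least 14 of 15 profiles. Most profiles ranked the 54 genes alike, and no share was computed for genes that are not partners. The count therefore describes these pairs and is no result about binding partners.

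Other wiring receptors were counted beside the members. Of 35 genes for surface proteins of synaptic partner choice (Dscams, teneurins, cadherins, neuroligins, Robos and others), all were tested, with a median naïve log2 ratio of 0.030 and a range from -0.098 (rst) to 0.59 (trn). Above 0.2 were 5 (trn, klg, tutl, caps and Nrg) and below -0.2 were 0, where the members had 3 dpr genes. At an adjusted p under 0.05, 5 passed upward and 0 downward, against 7 and 3 of the 54 members. Of all genes 28.6% and 17.3% did, so both lists were below the background in both directions. At the thresholds used none was called.

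Training was first compared with the naïve state. No member and no gene passed the test in any of the 4 comparisons (0% each), which share the 3 naïve profiles. The medians of the member differences were 0.067 in unpaired TI-1, 0.089 in paired TI-1, 0.062 in unpaired TI-2 and 0.053 in paired TI-2. For all genes they were 0.052, 0.18, 0.0043 and 0.050, so in paired TI-1 the members stayed below the shift of all genes. That gap rested on replicate 3. With it left out of both groups, the paired TI-1 medians were 0.025 for members and 0.030 for all genes. Above 0 were the differences of 11 of 11 DIP genes in each comparison, against 70.3%, 76.9%, 51.8% and 66.4% of all genes in the same order. After centring each profile on its median gene, 10 of 11 were above 0 in unpaired TI-1, unpaired TI-2 and paired TI-2 (55.2%, 48.3% and 55.1% of all genes), and 2 of 11 in paired TI-1 (46.9%). With quantile normalization it was 5 of 11 in paired TI-1 (46.8%), and with X and the other chromosomes centred separately 8 of 11 in paired TI-2 (55.3%).

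At an unadjusted p under 0.05 (limma), 13 members (24.1%) were higher and 0 lower in unpaired TI-1, against 14.0% and 0.692% of all genes. In unpaired TI-2, 9 (16.7%) were higher and 0 lower, against 5.43% and 4.06%. In paired TI-2, 2 were higher and 0 lower, against 2.45% and 1.91%, and in paired TI-1 none passed in either direction, against 2.04%. The counts upward moved with the setting. In unpaired TI-1 they were 5, 4 and 1 with replicate 1, 2 or 3 left out of both groups (9.26%, 7.41% and 1.85% of members, against 2673, 700 and 1087 of the 17480 genes, or 15.3% and 4% for the first 2), 5 with the replicate block (9.26%, against 10.9%), 2 after centring (3.7%, against 6.28%) and 1 with all 15 profiles in 1 fit (1.85%, against 1.29%). The share of members was thus below that of all genes in 4 of these 6 settings. It was above with the unweighted mean (17 members, against 2537 of the 17480 genes), the median over fragments (13, against 1760) and quantile normalization (5, against 1013). It was also above with at least 50 fragments (7 of 28 members, against 141 of 1311 genes) and at least 5 fragments (9 of 54, against 1760 of 12353). The same held with genes at 0 kept (16, against 2665 of 17802) and with the prior variance set by fragment number (16, against 2501 of 17480). With fragments of no other gene it was 13 of 53, against 1905 of 13079. With X and the other chromosomes centred separately it was below (2 members, against 1122 of the 17480 genes). In unpaired TI-2 the 6 settings first listed gave 7, 0, 0, 1, 6 and 3 members, against 8.76%, 0.646%, 1.09%, 3.46%, 4.14% and 2.63% of all genes. There the share of members was above that of all genes with the unweighted mean (13 members, against 1041 of the 17480 genes) and the median over fragments (10, against 1068). It was also above with quantile normalization (11, against 947), separate centring (7, against 735) and at least 50 fragments (6 of 28, against 74 of 1311). In paired TI-2 the count ran from 0 to 9, the latter with the unweighted mean (16.7%, against 3.31%), and in paired TI-1 from 0 to 7, the latter with all 15 profiles in 1 fit (13%, against 9.02%). Without replicate 1 there were 1 and 2 members lower in unpaired TI-1 and unpaired TI-2, against 11.3% and 8.9% of all genes. With all profiles and no centring or block, the smallest adjusted p among members was 0.325, 0.481, 0.704 and 0.542 for unpaired TI-1, unpaired TI-2, paired TI-2 and paired TI-1.

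All 3 trained profiles lay above all 3 naïve profiles for 23 of 54 members in unpaired TI-1 (42.6%, against 22.7% of all genes), 16 in paired TI-1 (29.6%, against 19.2%), 18 in unpaired TI-2 (33.3%, against 10.9%) and 9 in paired TI-2 (16.7%, against 9.11%). For 0 members did they lie below, against 1.32%, 4.61%, 5.57% and 3.23% of all genes in the same order. DIP genes made up 8, 6, 6 and 2 of these members. After centring, the count in paired TI-1 was 2 (11.3% of all genes), while it was 16 in unpaired TI-1 (9.86%), 23 in unpaired TI-2 (7.57%) and 8 in paired TI-2 (6.02%). Without paired TI-1 replicate 3 the paired TI-1 count was 16 above and 1 below (19.7% and 10.2% of all genes), and without paired TI-2 replicate 3 the paired TI-2 count was 12 (22.2%, against 14% of all genes).

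The largest difference in unpaired TI-1, unpaired TI-2 and paired TI-2 belonged to beat-IIb (chr3R:17232253-17265049), which encodes a partner of Side-IV. Its log2 ratios were 0.074, 0.030 and 0.13 in naïve flies, 0.41, 0.24 and 0.29 in unpaired TI-1, 0.24, 0.18 and 0.47 in paired TI-1, 0.18, 0.39 and 0.52 in unpaired TI-2 and 0.17, 0.34 and 0.48 in paired TI-2. All 12 trained values were above the 3 naïve values. The differences from naïve flies were 0.24 (SE 0.056, adjusted p = 0.325), 0.22 (SE 0.10, adjusted p = 0.542), 0.28 (SE 0.095, adjusted p = 0.481) and 0.26 (SE 0.089, adjusted p = 0.704) in that order (limma). By group mean it stood at the 57.9 percentile of all genes in naïve flies and the 75.1, 53, 84.3 and 74.8 percentiles in the trained groups. The paired TI-1 mean holds replicate 3, where beat-IIb (0.47) was below the median of all genes (0.62). In paired TI-1 replicates 1 and 2 it had 0.24 and 0.18, beside upper quartiles of all genes of 0.27 and 0.20.

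DIP-eta (chr2L:5601723-5617946) went from -0.050, -0.12 and -0.061 in naïve flies to 0.16, 0.041 and 0.10 in unpaired TI-1, 0.058, 0.042 and 0.42 in paired TI-1, -0.0056, 0.19 and 0.16 in unpaired TI-2 and -0.012, 0.11 and 0.26 in paired TI-2. Its values did not overlap those of naïve flies in any group. The differences were 0.18, 0.25, 0.20 and 0.20, and none passed (adjusted p 0.325 to 0.704). The dpr2 gene, low in naïve flies at -0.15, -0.20 and -0.20, was at -0.028, -0.075 and -0.047 in unpaired TI-1 and -0.088, 0.00057 and 0.00062 in unpaired TI-2. The dpr16 gene was at -0.20, -0.21 and -0.19 in naïve flies and -0.046, -0.089 and -0.00022 in unpaired TI-1, and side-V was at -0.028, -0.078 and -0.011 in naïve flies and 0.041, 0.080 and 0.13 in paired TI-2 without passing (adjusted p = 0.704).

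The members highest in naïve flies were chosen on those values, so their differences from trained flies only describe them. The dpr4, dpr12, beat-IV and side-IV genes overlapped their naïve values in all 4 comparisons. For side-IV the differences were -0.14 in unpaired TI-2 and -0.15 in paired TI-2, and for beat-IV -0.17 in unpaired TI-2. At the low end, 3 genes were below -0.2 in naïve flies, against 0 in unpaired TI-1, paired TI-1 and unpaired TI-2 and 2 in paired TI-2. The share of all genes below -0.2 was 18.5% in naïve flies and 8.22%, 2.79%, 12.2% and 11.7% in unpaired TI-1, paired TI-1, unpaired TI-2 and paired TI-2, so it was lower in the trained groups too.

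**Figure D4:**
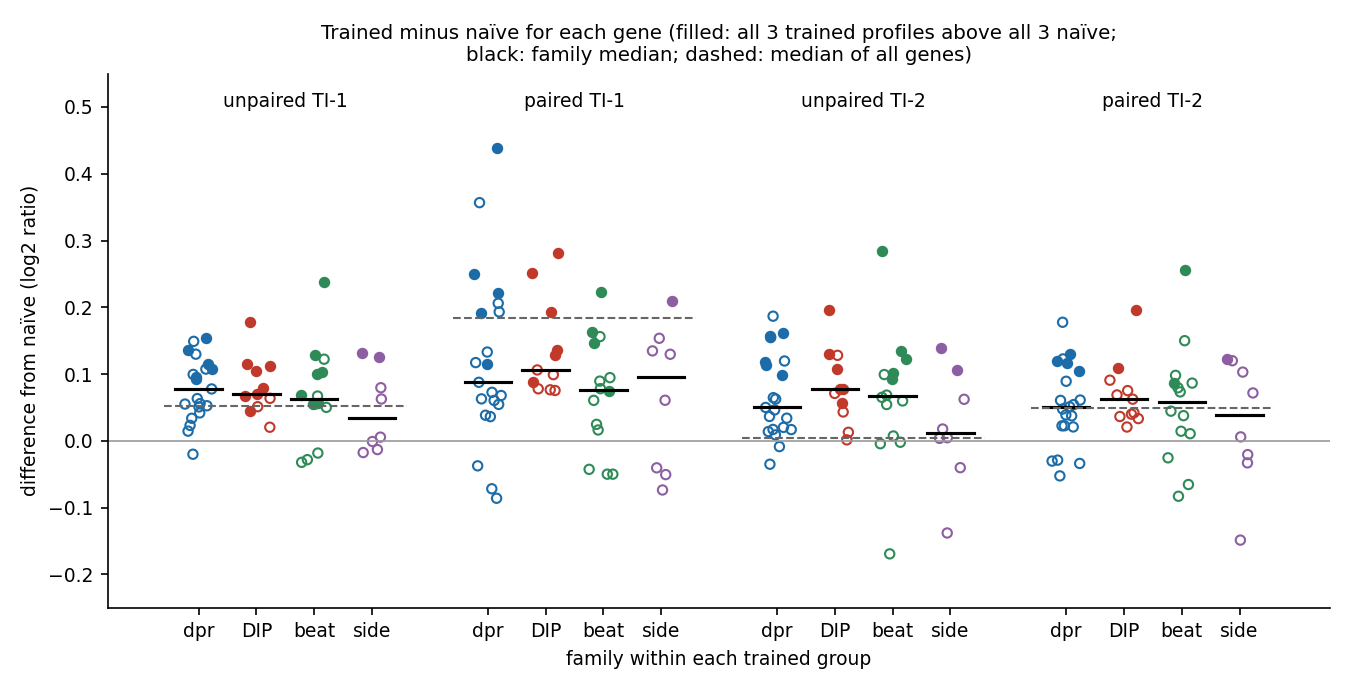
Difference in mean log2 ratio from naïve flies (y axis) of each receptor gene in each trained group, by family (x axis); filled points have all 3 trained profiles above all 3 naïve profiles, black bars are family medians and dashed lines the median of all genes. The highest point is beat-IIb in unpaired TI-1 (0.24), unpaired TI-2 (0.28) and paired TI-2 (0.26), and dpr16 in paired TI-1 (0.44), where the all-gene median is also high (0.18).

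Paired against unpaired flies asks which genes differ where odour and sucrose were associated. At TI-1, 0 members and 0 genes were called (0%), and at an unadjusted p under 0.05 it was 0 members against 1.03% of genes (limma on the differences within replicate number). The median of the members' differences was -0.099, -0.0024 and 0.17 in pairs 1, 2 and 3, beside -0.078, -0.0042 and 0.47 for all genes. Pair 3 holds the discordant paired profile. A difference of the same sign in 3 of 3 pairs was seen upward in 0 members (10.3% of genes) and downward in 4 (10.1%), namely dpr9, beat-Ic, beat-Vb and side-VI.

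The largest mean difference at TI-1 was that of dpr16, with -0.074, 0.027 and 0.90 in the 3 pairs and a mean of 0.29 (SE 0.26, adjusted p = 0.836). It rested on pair 3, without which the mean was -0.024. The same was true of DIP-epsilon, with -0.072, 0.0079 and 0.57, and -0.032 without pair 3. The dpr21 gene had -0.026, 0.048 and 0.27, and was at -0.070 after centring. Downward, dpr4 had -0.22, -0.20 and 0.050, a mean of -0.12 and of -0.21 without pair 3. The dpr17 gene had -0.13, 0.00090 and -0.071, and dpr18 had -0.27, 0.050 and 0.0085. No member was set apart by these pairs.

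At TI-2, again 0 members and 0 genes were called (0%). At an unadjusted p under 0.05 there was 1 member, dpr18, against 0.618% of genes. It had differences of -0.19, -0.18 and -0.18, a mean of -0.18 (SE 0.056, adjusted p = 0.891). Its log2 ratios were -0.37, -0.15 and -0.18 in paired and -0.18, 0.031 and -0.0031 in unpaired TI-2, so the groups overlapped. Replicate numbers were not shown to pair the TI-2 samples, and without the replicate block 0 members were lower at an unadjusted p under 0.05 (0.32% of genes), so dpr18 no longer passed, nor did it with any replicate left out. The same sign in 3 of 3 pairs was seen upward in 1 member, dpr5 (8.60% of genes), and downward in 16 (8.87%), which were 5 dpr, 3 DIP, 7 beat and 1 side gene. The downward count was 10 after centring (18.5%, against 8.31% of genes) and 7 with X and the other chromosomes centred separately (13%, against 8.41%). The medians of the members' differences were -0.026, -0.027 and -0.00040 in the 3 pairs, beside 0.021, -0.046 and 0.087 for all genes.

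The other members with the smallest p varied more between pairs. The dpr7 gene had 0.11, -0.27 and -0.55 (mean -0.24, adjusted p = 0.891), and beat-Va had -0.041, -0.18 and -0.021. Upward, dpr5 had 0.068, 0.012 and 0.48, a mean of 0.19 that was 0.040 without pair 3. The dpr12 gene had -0.13, 0.039 and 0.57 and DIP-gamma -0.040, 0.0028 and 0.26, and both means fell below 0 without pair 3 (-0.046 and -0.018). Pair 3 holds paired TI-2 replicate 3, the profile next furthest from the rest.

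The difference between the intervals was tested directly, as TI-1 minus TI-2 of the paired minus unpaired differences. No member and no gene was called (0%), and at an unadjusted p under 0.05 it was 0 members against 0.469% of genes. The members with the smallest p were dpr21, with a mean of 0.16 (SE 0.12, adjusted p = 1), dpr7, with 0.24, and dpr2, with 0.13. Without replicate 3 these were 0.011, 0.059 and -0.00038. No receptor gene was thus shown to differ between paired and unpaired flies at either interval, or between the intervals, with 3 profiles a group.

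**Figure D5:**
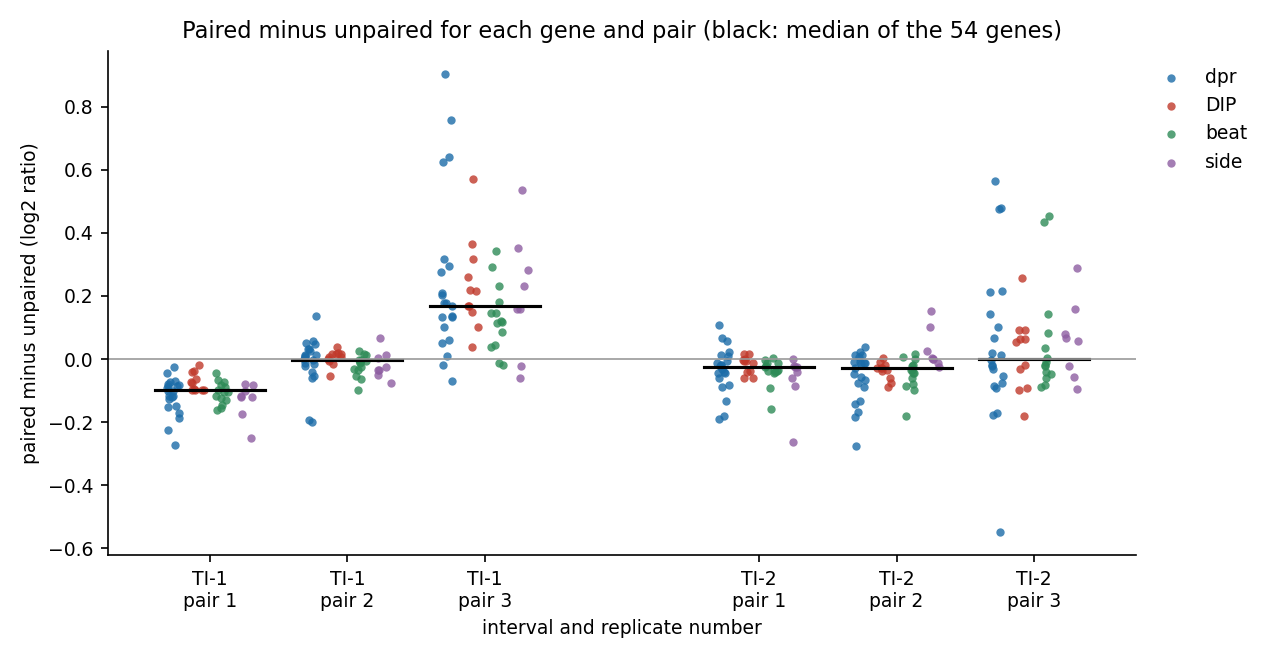
Paired minus unpaired difference in log2 ratio (y axis) of each receptor gene in the 3 pairs of replicates at TI-1 and at TI-2 (x axis), coloured by family; black bars are the median of the 54 genes. The points spread furthest in pair 3 of each interval, where dpr16 reaches 0.90 at TI-1 and dpr12 reaches 0.57 at TI-2.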

How the data were processed

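TaDa profiles were made from 15 Dam::CrebB and 15 Dam-only libraries of fly heads. Per the study's methods, the authors mapped single reads with a DamID pipeline (release 6.22), extended and binned them, normalized the libraries and added pseudocounts. The deposited profiles hold log2 ratios of Dam::CrebB over Dam-only per GATC fragment, so the depth behind each value is unknown and no counting interval was given. Between 12.4% and 21.6% of a profile's fragments were at exactly 0. The pipeline's normalization assumes that most fragments are alike between the 2 libraries, so a shift of a whole profile is not a measured change. Deposited lists of genes called by the authors hold their own findings and were not used.

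Gene positions came from a RefSeq gene table of release 6, which gives no strand, exons or sequences. Of 383654 fragments listed, 383653 were used (median 198 bp). The gene value is the length-weighted mean log2 ratio over the fragments that overlap the gene body. After 322 genes whose value was 0 throughout were dropped, 17480 remained. Of the members, 41 share at least 1 fragment with another gene, and 3 hold under 50% of their own: beat-IIIa, side-IV and DIP-alpha. Tests used limma 3.58.1 in R 4.3.3, two-sided, with Benjamini-Hochberg adjustment over all genes. Calls were made at an adjusted p under 0.01 and a log2 difference over 0.2. These cut-offs are the study's, which set them on the ratio of Dam::CrebB over Dam-only and on q-values from GATC fragments. Here they were put on limma tests over replicates, so the counts of calls cannot be set against those of the study. Paired and unpaired profiles were compared as differences within replicate number. Their deviations correlated at 0.54, 0.029 and 0.46 at TI-1 and at -0.13, -0.087 and -0.25 at TI-2, so the numbers were not shown to pair the samples. The script was tested on simulated data.

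Named were, in each family, the 3 members highest and the 2 lowest in naïve flies, the 3 with the smallest p in each direction of paired minus unpaired at each interval, the 3 with the smallest p in each other comparison, and known binding partners. Members named beside these (dpr1, dpr9, dpr20, beat-Ic, side-VIII and others) were chosen after their values were seen. The members and lists were chosen with earlier results of these data known. Alternatives covered gene value, scaling, fragment minimum, thresholds, the fit, the replicate block and each replicate left out. Using fragments of no other gene, and leaving out paired TI-1 replicate 3 or paired TI-2 replicate 3, were chosen after seeing the data.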

Additional observations from a re-analysis of the deposited data

How the results depend on the processing

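Single named genes gave 63 results, each recomputed under each alternative that could be run. Of the values, 908 were kept, 40 passed a threshold they had missed, 32 moved past their spread and 21 changed sign. Kept meant the same direction and side of the threshold. For genes named only as binding partners and not called, it meant a change under the naïve SD, whatever the sign. The 21 therefore leave out changes of sign in those genes. The causes were not tested. Promoter windows could not be used, as no table gave their positions.

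In naïve flies, 0 members were called in either direction. The counts upward and downward were 1 and 1 with profiles centred on the median gene (19.8% and 8.87% of all genes), 1 and 2 with X and the other chromosomes centred separately (19.3% and 8.62%), 11 and 1 with quantile normalization (31.7% and 9.42%), 4 and 2 with at least 5 fragments (23.2% and 11%), 2 and 1 of 28 members with at least 50 fragments (38.6% and 5.8%), and 7 and 3 at an adjusted p under 0.05 (28.6% and 17.3%). With all 15 profiles in 1 fit, 3 were called upward (13%). Leaving out each replicate gave 0 to 4 upward, the 4 without naïve replicate 1 (18.2%). In the comparisons of paired, unpaired and naïve flies, 0 members were called under each alternative. With or without the replicate block, 0 members were called in each of these comparisons.

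Members with all trained above all naïve profiles numbered 23 in unpaired TI-1 (22.7% of all genes), and 14 with quantile normalization (9.16%), 13 of the 28 members with at least 50 fragments (46.4%, against 23.3%) and 23 to 36 with a replicate left out (34% to 39.3%). In paired TI-1 there were 16 (19.2%), and 2 under either centring (11.3% and 11.6%), 5 with quantile normalization (10.9%), 9 of 28 with at least 50 fragments (32.1%, against 15.9%) and 16 to 26 with a replicate left out (19.7% to 42.5%). In unpaired TI-2 there were 18 (10.9%), and 30 with quantile normalization (11.1%) and 21 to 32 with a replicate left out (16.4% to 31.2%). In paired TI-2 there were 9 (9.11%), and 16 with the unweighted mean (11.3%), 17 with the median over fragments (8.38%), 5 of 28 with at least 50 fragments (17.9%, against 7.63%) and 10 to 27 with a replicate left out (14% to 27.2%). The minimum of 50 fragments left fewer members, and their share was not lower.

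The naïve median of dpr (0.023) was 0.071 with quantile normalization. That of DIP (-0.055) was -0.034 with the median over fragments, -0.00028 with quantile normalization, -0.031 with fragments of no other gene and -0.021 with at least 50 fragments. That of beat (0.052) was -0.012 with the median over fragments and 0.11 with quantile normalization, and that of side (0.11) was 0.013 with the median over fragments.

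Signs changed in naïve flies for dpr5 (-0.0059) and DIP-kappa (-0.0015) with the median over fragments, and for DIP-beta (0.060), beat-Ia (0.0034) and side-V (0.016) with quantile normalization. Genes named only as binding partners were not searched for changes of sign. Among them, DIP-alpha went from -0.031 to 0.0060 and beat-Vc from -0.0093 to 0.0019 with fragments of no other gene. With a replicate left out, DIP-beta ran from -0.012 to 0.011. In paired minus unpaired TI-1, replicates left out gave -0.024 to 0.47 for dpr16, -0.032 to 0.29 for DIP-epsilon and -0.13 to 0.029 for dpr18. There DIP-epsilon was -0.00042 with centring and -0.0078 with quantile normalization, and dpr21 was -0.070 with centring and -0.067 with separate centring. In paired minus unpaired TI-2, replicates left out gave -0.046 to 0.30 for dpr12 and -0.018 to 0.13 for DIP-gamma, and quantile normalization gave -0.084 and -0.033. The interval difference of dpr2 ran from -0.00038 to 0.21 with a replicate left out, and was -0.0030 with the median over fragments, -0.019 with centring and -0.024 with separate centring.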
